A study of Mus musculus with 8 samples.

Results

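Postsynaptic density scaffolds are the multidomain proteins that hold receptors and signaling enzymes beneath the membrane of excitatory synapses. The genes described are Dlg1, Dlg2, Dlg3, Dlg4, Shank1, Shank2, Shank3, Homer1 and Dlgap1, chosen by name as members of 4 scaffold families, and they are 9 of the 13996 genes measured. RNA depleted of rRNA was sequenced from the brain cortex of 8 male C57BL/6 mice, 1 library per mouse, to learn how a high fat diet changes the transcripts of this tissue. The 4 normal mice ate a conventional diet, and the 4 HFD mice ate a diet of 60% fat by weight for 8 weeks, starting at 8 weeks of age. Both groups were sampled at 16 weeks of age, when the HFD mice were heavier and handled glucose poorly. As a model the design is limited to males, to a single duration of feeding and to whole cortex in which all cell types are mixed. Expression is given as FPKM, a count of sequenced fragments that the authors had already scaled to library depth and transcript length and rounded to 0.1. Summed FPKM per mouse lay between 562431 and 639142, and the depth behind a value is unknown.

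Within the density, PSD-95, the product of Dlg4, and its relatives from Dlg1, Dlg2 and Dlg3 bind the tails of NMDA receptors and, through adaptor proteins, hold AMPA receptors. SAPAP proteins, among them that of Dlgap1, bind this layer from below and carry Shank proteins, which in turn bind Homer, and Homer binds metabotropic glutamate receptors and calcium channels of the endoplasmic reticulum. Homer1 also makes a short form, Homer1a, an activity-induced transcript whose protein lacks the coiled coil and breaks up the links made by the long forms.

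Before the scaffolds, the tissue was checked with 10 lists of marker genes. Cortical projection neuron markers were present in every mouse, with a summed FPKM of 403.9, 303.9, 284.4 and 431.2 in normal mice 1 to 4 and of 487.4, 507.8, 567.0 and 477.4 in HFD mice 1 to 4. Normal mice 2 and 3 had the lowest sums, all HFD mice lay above all normal mice, and 7 of the 8 genes of this list passed the test as higher in HFD, the most abundant being Slc17a7. Striatal markers summed to 401.6, 328.5, 313.1 and 214.1 in the normal mice and to 69.8, 70.4, 79.7 and 74.8 in the HFD mice. All 7 measured genes of the striatal list were lower in HFD, and its most abundant gene was Penk, at 108.9 ± 26.1 FPKM (SD, n = 4) against 11.2 ± 1.3. Cerebellar markers summed to 53.5, 282.9, 363.4 and 102.8 in the normal mice and to 33.5, 37.9, 33 and 37.1 in the HFD mice, with Calb1 as the most abundant and 5 of 6 tested genes lower. Gabra6, a granule cell marker of the cerebellum, was listed at 0 in HFD mouse 1 and reached 46.5 and 61.7 FPKM in normal mice 2 and 3. Thalamic markers summed to 42.6, 104.3, 89.4 and 33.5 in the normal mice and to 31.8, 32.4, 32.7 and 30.3 in the HFD mice, and 1 of 7 was lower. That count was 3 without normal mouse 1 and 6 without normal mouse 4. Striatal and cerebellar sums were thus higher in every normal mouse than in any HFD mouse, and normal mice 2 and 3 stood apart by their cerebellar and thalamic markers. Drd1 and Pcp2 were not analysed here.

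Oligodendrocyte markers, led by Mbp, summed to 2746.9, 3377.0, 3033.0 and 2041.6 in the normal mice and to 1467.3, 1410.0, 1955.7 and 1422.6 in the HFD mice, and 7 of 7 were lower. Of 6 interneuron markers, 1 was higher and 4 were lower, with Sst the most abundant and sums of 431.5, 476.6, 491.7 and 459.4 against 428.6, 386.5, 425.4 and 406.1, and 2 were lower without any single 1 of normal mice 2 and 3 and HFD mice 1, 2 and 4. Astrocyte markers (Slc1a2 the most abundant) had sums from 689.1 to 713.6 in the normal mice and from 682.4 to 724.3 in the HFD mice, with 1 of 6 higher and 2 lower. The higher count was 0 without normal mouse 2 or 3 or HFD mouse 1, 2 or 3, and the lower count was 1 without normal mouse 2 or 3 or HFD mouse 2, 3 or 4, and 3 without normal mouse 1 or 4. Microglial markers (C1qa) had sums from 105.4 to 128.3 against 110.7 to 121.9, and 0 of 6 passed in limma (1 higher and 0 lower at an unadjusted p under 0.05), with 1 called higher without HFD mouse 2. Blood markers (Hbb-bs) were lower in 5 of 5 cases, and choroid plexus markers (Ttr) summed to 76.6, 20.9, 27.4 and 941.6 in the HFD mice against 342.6 to 726.6, with 2 of 5 lower. That count was 5 without HFD mouse 4, whose sum stands apart, 2 without normal mouse 4, and 0 without any other mouse or without normal mice 2 and 3 together. Without normal mice 2 and 3, a comparison chosen after the data were seen, 7 striatal, 5 cerebellar, 6 oligodendrocyte and 0 blood markers were lower and 5 projection neuron markers higher. Marker levels that move with the diets cannot be told apart from them. The part of tissue composition in the results on the scaffolds was not tested. The comparison without normal mice 2 and 3 cannot test it, as striatal, cerebellar and oligodendrocyte markers still differed between the diets there. In bulk tissue, fewer cells of a type and less RNA per cell cannot be told apart.

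Among the scaffolds, Shank1, Shank2 and Dlgap1 were higher in HFD mice, and 0 of the 9 were lower in limma (0 also at an unadjusted p under 0.05, where 6 were higher). Those 3 of 9 stand beside 17.7% of the 13982 genes tested that were called higher and 33.1% called in either direction. For the same 3 genes every HFD mouse lay above every normal mouse, as was so for 17.2% of all genes. Shank1 and Shank2 also exceeded a change of 50%, which 4.23% of all genes did as higher in HFD. Neither did so without normal mice 2 and 3 or after correction for GC content and length, and Shank2 did not without normal mouse 2, normal mouse 3, HFD mouse 2 or HFD mouse 3, with an added constant of 1, or after correction for GC content alone. All 9 log2 fold changes were above 0, with a median of 0.22 against 0.00 over all genes, but those of Dlg3 and Homer1 fell below 0 when normal mice 2 and 3 were left out, and that of Shank3 did so after correction for GC content and length. All 9 genes passed the filter on low FPKM.

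**Figure D1:**
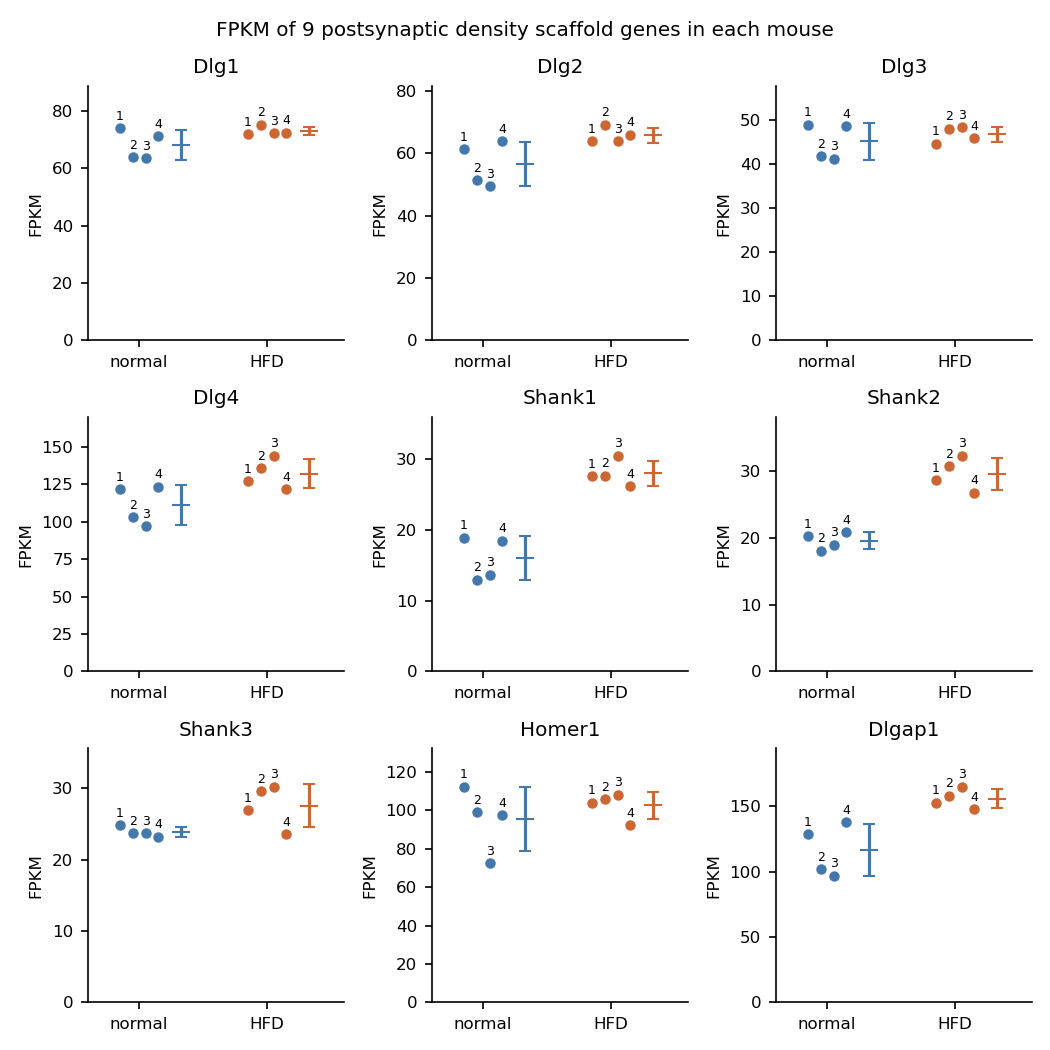
FPKM of each scaffold gene in each of the 8 mice, with the mouse number above each point and the mean ± SD (n = 4) beside each group. Shank1, Shank2 and Dlgap1 show no overlap between diets, whereas normal mice 2 and 3 sit below normal mice 1 and 4 in 7 of 9 panels.

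Dlg4 encodes PSD-95, the most abundant scaffold of the Dlg family at mature excitatory synapses. Its FPKM was 122.0, 103.0, 97.0 and 123.5 in normal mice 1 to 4 and 127.1, 135.8, 144.1 and 121.7 in HFD mice 1 to 4. HFD mouse 4 lay among the normal mice and the other 3 HFD mice lay above all of them, while normal mice 2 and 3 were the lowest. The mean moved from 111.4 ± 13.4 to 132.2 ± 9.85 FPKM (SD, n = 4), a log2 fold change of 0.25 (SE 0.09) that missed the threshold in limma (Benjamini-Hochberg adjusted p = 0.0523). Without normal mice 2 and 3 this change was 0.10, with an adjusted p of 0.329 in limma, while without normal mouse 1 or normal mouse 4, after quantile scaling, after GC correction and with a filter at 5 FPKM it was called. The gene spans chr11:70016942-70047522 (GRCm38, + strand) and has 22 annotated transcripts.

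Dlg2 encodes PSD-93, which like PSD-95 carries NMDA receptors and potassium channels. In the normal mice it measured 61.2, 51.4, 49.5 and 63.9 FPKM, and in the HFD mice 63.9, 69.1, 63.8 and 65.9 FPKM. The HFD values were closely spaced and normal mouse 4 reached the lower ones, so that the groups overlapped. Its log2 fold change of 0.22 (SE 0.08) was not called by limma (adjusted p = 0.0610) and was 0.07 without normal mice 2 and 3, while it was called without normal mouse 1 or normal mouse 4, after quantile scaling and after GC correction. This gene, at chr7:90476672-92449247, covers 1973 kb, the longest span among the 9.

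Dlg3 encodes SAP102, the member of the family that is prominent in young synapses and lies on the X chromosome at chrX:100767722-100818410. It stood at 48.9, 41.8, 41.2 and 48.6 FPKM in the normal mice and at 44.6, 48.0, 48.4 and 45.9 FPKM in the HFD mice. All HFD values fell inside the range of the normal ones. The log2 fold change was 0.05 (SE 0.07, limma adjusted p = 0.560), and −0.06 without normal mice 2 and 3.

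Dlg1 encodes SAP97, a scaffold also found outside synapses and involved in AMPA receptor traffic. Values were 74.0, 63.9, 63.4 and 71.1 FPKM in the normal mice and 71.9, 75.1, 72.2 and 72.4 FPKM in the HFD mice. Only HFD mouse 2 exceeded normal mouse 1, and normal mice 2 and 3 were again the lowest. A log2 fold change of 0.10 (SE 0.06) was not called by limma (adjusted p = 0.195) and was 0.01 without those 2 mice. Dlg1 lies at chr16:31663443-31875129.

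Dlgap1 encodes SAPAP1, also called GKAP, which joins the PSD-95 layer to Shank. Normal mice 1 to 4 had 128.4, 102.1, 97.0 and 137.6 FPKM, and HFD mice 1 to 4 had 152.6, 158.1, 164.8 and 147.5 FPKM. The lowest HFD mouse was above the highest normal mouse, and normal mice 2 and 3 were the lowest. Dlgap1 rose from 116.3 ± 19.8 to 155.8 ± 7.43 FPKM (SD, n = 4), 1.35-fold on the log2(FPKM + 0.1) scale with a 95% interval of 1.15 to 1.6 (limma, adjusted p = 0.0134, 4 of 4 HFD mice above every normal mouse). The log2 fold change of 0.44 became 0.23 without normal mice 2 and 3, where it was still called by limma (adjusted p = 0.0347), and the call was lost only with the replicate block and GC and length correction together (0.34, limma adjusted p = 0.0690). The gene lies at chr17:69969073-70821413 and has 20 annotated transcripts.

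Shank1 encodes the Shank protein that is found almost entirely in neurons. It measured 18.9, 13.0, 13.7 and 18.5 FPKM in the normal mice and 27.6, 27.7, 30.5 and 26.2 FPKM in the HFD mice. A wide gap separated the diets, and within the normal diet mice 2 and 3 were well below mice 1 and 4. From 16.0 ± 3.11 to 28.0 ± 1.80 FPKM (SD, n = 4), Shank1 rose 1.76-fold with a 95% interval of 1.46 to 2.13 (limma, adjusted p = 0.00173). Correction of each mouse for GC content and length lowered its log2 fold change from 0.82 to 0.49, still called by limma (adjusted p = 0.0102), and without normal mice 2 and 3 it was 0.58 (limma adjusted p = 0.00327). Shank1 lies at chr7:44310253-44360572, and 61.4% of its longest transcript is G or C.

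Shank2, on the same chromosome at chr7:144001928-144424494, encodes a scaffold found at excitatory synapses of cortex, hippocampus and cerebellum. Its levels were 20.3, 18.1, 19.0 and 20.9 FPKM in the normal mice and 28.7, 30.7, 32.3 and 26.8 FPKM in the HFD mice. Both groups were tight, with no overlap, and normal mice 2 and 3 stood little below the other normal mice. Shank2 rose from 19.6 ± 1.26 to 29.6 ± 2.39 FPKM (SD, n = 4), 1.51-fold with a 95% interval of 1.36 to 1.68 (limma, adjusted p = 0.000793). Of the 9 scaffolds it had the lowest adjusted p, and its log2 fold change of 0.59 was 0.52 without normal mice 2 and 3 and 0.40 after correction for GC content and length (limma adjusted p = 0.00607 and 0.00147).

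Shank3, at chr15:89499623-89560261, encodes the family member best known from Phelan-McDermid syndrome and is strongly expressed in striatum. The normal mice gave 24.8, 23.7, 23.7 and 23.2 FPKM, and the HFD mice gave 26.9, 29.6, 30.2 and 23.6 FPKM. The normal values were nearly equal, HFD mice 1 to 3 were above them, and HFD mouse 4 was among them. A log2 fold change of 0.20 (SE 0.08) was not called by limma (adjusted p = 0.0641). It was 0.27 and called without HFD mouse 4 (limma adjusted p = 0.00966), and −0.09 after correction for GC content and length (limma adjusted p = 0.188). Striatal markers, whose tissue expresses Shank3, were higher in the normal mice, and their part in its level was not tested.

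Homer1 lies at chr13:93299635-93405129 and encodes the Homer protein that links Shank to receptors and calcium stores. Normal mice 1 to 4 measured 112.2, 99.1, 72.6 and 97.5 FPKM, against 104.0, 105.9, 108.1 and 92.2 FPKM in HFD mice 1 to 4. Normal mice held both the highest and the lowest value, and normal mouse 3 was far below the rest. The log2 fold change was 0.12 (SE 0.12, limma adjusted p = 0.458), and it was −0.01 without normal mouse 3 and 0.03 after correction for GC content. FPKM is given per gene, so the short form Homer1a cannot be told apart from the long forms.

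Promoter sequences from RefSeq (GRCm38.p6) matched 7 of the 9 scaffolds at 17 starts; Shank1 and Shank2 were not matched. Because Homer1a belongs to the activity-induced transcripts, the 250 bases before each start were searched for TGACG and, as its form on the other strand, for CGTCA, the core letters of the site bound by CREB. The motif was present 3 times before 1 of the 2 Homer1 starts, 1 time before 1 start each of Dlg3 and Dlg4, and was not found before the other starts. Of all 32851 promoters, 17.8% held it at least 1 time in 250 bases and 0.69% at least 3 times. The 80 bases upstream of a start are shown for Homer1 (chr13:93303677-93303756, + strand) and, as a scaffold that differed between the diets, for Dlgap1 (chr17:69968993-69969072, + strand), with the motif in capitals. In windows of 80 bases the shares of all promoters were 9.0% and 0.19%.
Homer1: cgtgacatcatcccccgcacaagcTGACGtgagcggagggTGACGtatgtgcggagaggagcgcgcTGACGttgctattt
Dlgap1: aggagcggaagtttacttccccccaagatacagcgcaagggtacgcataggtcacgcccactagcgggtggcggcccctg
A match describes letters only, and binding was not measured.

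Ranked by mean FPKM in the normal mice, the order was Dlgap1, Dlg4, Homer1, Dlg1, Dlg2, Dlg3, Shank3, Shank2 and Shank1, from 116.3 down to 16.0 FPKM. Dlgap1, Dlg4 and Homer1 overlapped with their neighbors, as did Homer1 with Dlg1, Dlg1 with Dlg2 and Shank2 with Shank1, whereas Dlg2 and Dlg3, Dlg3 and Shank3, and Shank3 and Shank2 did not. In the HFD mice the first 6 genes kept this order, from 155.8 FPKM for Dlgap1 to 46.7 FPKM for Dlg3, and no neighbors among them overlapped. The order of the Shank genes became Shank2, Shank1 and Shank3, at 29.6, 28.0 and 27.6 FPKM, with all neighbors overlapping. FPKM is scaled for length, which is why levels were set side by side between genes. The order was not computed after correction for GC content, in which the genes differ.

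Shares of the summed FPKM describe the balance within a family. Shank3 supplied 38.8%, 43.2%, 42.0% and 37.1% of the summed Shank FPKM in normal mice 1 to 4 and 32.3%, 33.6%, 32.5% and 30.8% in HFD mice 1 to 4. It was the leading Shank transcript of every normal mouse and no longer so in the HFD mice, in each of which Shank2 held the largest share, between 34.5% and 35.0%. Striatal markers were higher in the normal mice, and their part in the Shank3 share was not tested. Summed over the family, Shank FPKM went from 59.5 ± 4.53 to 85.2 ± 6.99 (SD, n = 4). In the Dlg family, Dlg4 held 39.6% ± 0.679 in the normal mice and 41.6% ± 1.69 in the HFD mice (SD, n = 4), and Dlg3 held 16.1% ± 0.247 and 14.7% ± 0.212.

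Whether 2 scaffolds of a family changed unequally was tested on the log2 ratio of both within each mouse, for 9 pairs, by exact two-sided permutation over 70 assignments, in which 0.0286 is the smallest p. Shank1 over Shank3 was −0.39, −0.86, −0.79 and −0.33 in normal mice 1 to 4 and 0.04, −0.10, 0.01 and 0.15 in HFD mice 1 to 4. Shank2 over Shank3 was −0.29, −0.39, −0.32 and −0.15 against 0.09, 0.05, 0.10 and 0.18. Neither ratio overlapped between the diets; Shank1 over Shank3 was higher by 0.62 and Shank2 over Shank3 by 0.39 in HFD (both exact permutation p = 0.0286, adjusted over the 9 pairs 0.0643). Without normal mice 2 and 3 these differences were 0.38 and 0.33. The part of striatal RNA in the ratios over Shank3 was not tested. Shank1 over Shank2 overlapped, with a difference of 0.23 (exact permutation p = 0.0571) that was 0.06 without those mice and 0.10 after correction for GC content and length.

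In the Dlg family, Dlg2 over Dlg3 was 0.32, 0.30, 0.26 and 0.39 in the normal mice and 0.52, 0.52, 0.40 and 0.52 in the HFD mice. Dlg3 over Dlg4 was −1.32, −1.30, −1.23 and −1.34 in the normal mice and −1.51, −1.498, −1.57 and −1.40 in the HFD mice. Each of these ratios was without overlap, though in Dlg2 over Dlg3 normal mouse 4 came close to HFD mouse 3. The differences were 0.17 and −0.20 (both exact permutation p = 0.0286, adjusted 0.0643), which did not pass the adjustment. The other pairs overlapped, with exact permutation p between 0.0571 and 0.771. Thus 0 of 9 pairs passed an adjusted 0.05, a level that exact permutation over 8 mice can reach for 9 pairs only where at least 6 of them are at the smallest p.

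**Figure D2:**
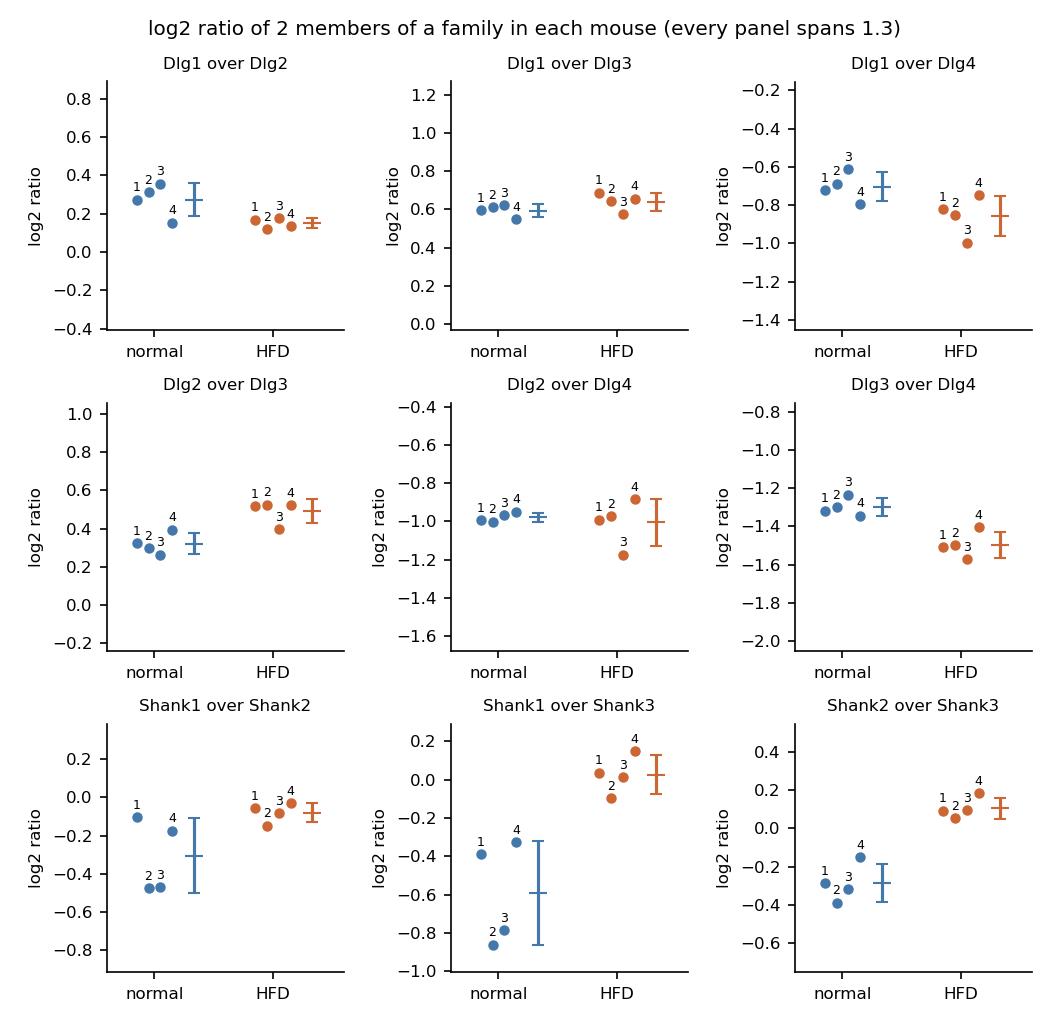
Log2 ratio of FPKM + 0.1 between pairs of scaffolds of a family in each mouse, with the mouse number above each point and the mean ± SD (n = 4) beside each group; each axis spans 1.3 log2 units. Shank1 over Shank3, Shank2 over Shank3, Dlg2 over Dlg3 and Dlg3 over Dlg4 do not overlap between the diets.

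Variation between mice of the same diet was shared by most of the scaffolds. After the diet means were subtracted, the correlation of log2 values over the 8 mice was above 0 for all 36 pairs, with a median r of 0.76 and a range of 0.05 to 0.95. The same correlation was not computed over pairs of all genes, so how far these values are particular to the scaffolds is unknown. Normal mice 2 and 3 were both below normal mice 1 and 4 in 7 of 9 scaffolds, against 27.3% of all genes tested. In 26% of all genes tested both were above. The heat map shows the same mice lowest in cortical projection neuron markers and highest in those of cerebellum and thalamus, and the part of these markers in the scaffold levels was not tested.

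**Figure D3:**
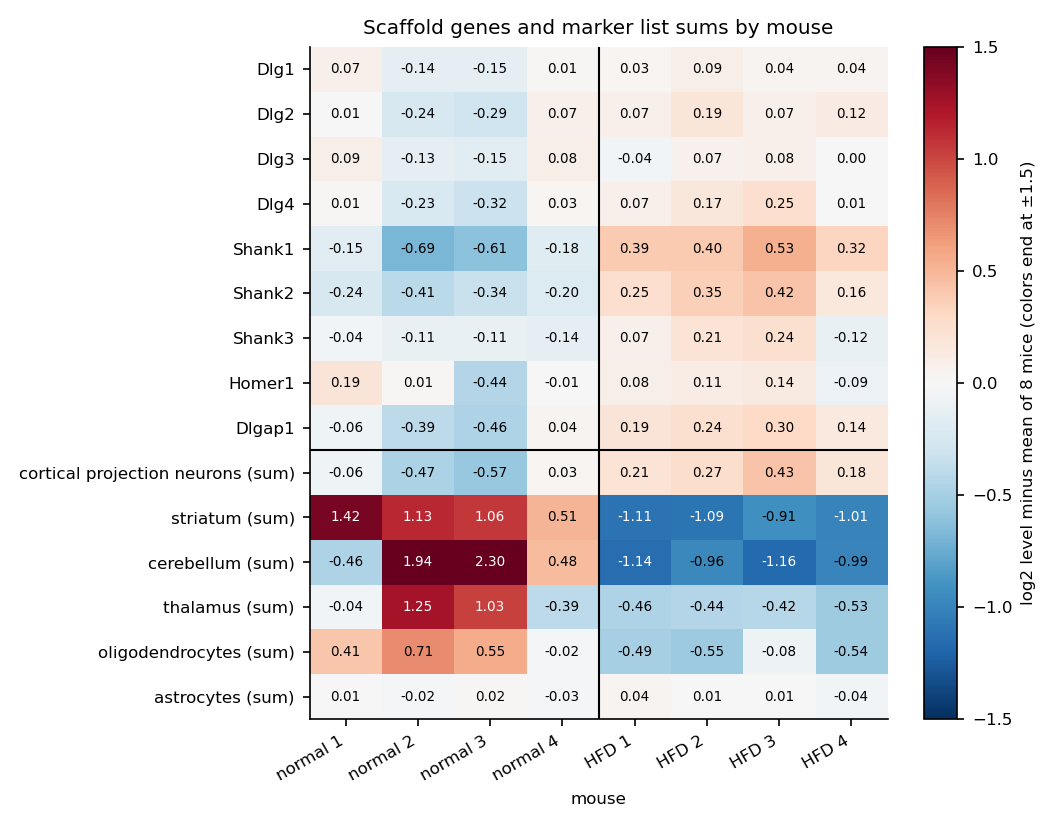
Log2 level of each scaffold gene (FPKM + 0.1) and of the summed FPKM of 6 marker lists in each mouse, minus the mean of the 8 mice; colors end at ±1.5 and the printed numbers give the full value. Normal mice 2 and 3 are low in 7 of 9 scaffolds and high in cerebellar and thalamic markers.

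The genes whose variation within diets was most like that of Dlg4, among 6891 others with a mean of at least 10 FPKM, were Snph (r = 0.999 over 8 mice), Cdk5r1 (r = 0.997) and Synpo (r = 0.995). For Shank3 they were Prex1 (r = 0.97), Pcsk1n (r = 0.95) and Ttyh1 (r = 0.95), and for Homer1 they were Dnajb5 (r = 0.98), Zmat4 (r = 0.97) and Srf (r = 0.97). These values describe 8 libraries that also differ in their markers of tissue composition, and the part of these markers in the correlations was not tested.

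Of 6 paralogs of these families, 4 were higher and 1 was lower in HFD. Over all 13982 genes tested, 2480 were higher and 2146 lower. The counts of this list, of the marker lists and of the lists below stand beside these. Dlgap4 measured 42.6, 34.9, 33.6 and 45.6 FPKM in the normal mice and 64.2, 64.0, 68.7 and 57.9 FPKM in the HFD mice. Its groups did not overlap, and it rose by 0.71 on the log2 scale (SE 0.10, limma adjusted p = 0.00137). Dlgap2 rose by 0.68, Dlg5 by 0.48 and Homer2 by 0.43 in limma (adjusted p = 0.0121, 0.00398 and 0.0111). Homer2 was at 0.28 and not called without normal mice 2 and 3 (limma adjusted p = 0.0733), where 3 paralogs were called higher and Dlgap2 was at 0.35 (limma adjusted p = 0.0145). After correction for GC content and length Dlg5 was at 0.27 (limma adjusted p = 0.0492). Dlgap3, the most abundant paralog, had a log2 fold change of 0.29 that limma did not call (adjusted p = 0.0936). Its value was 0.10 without normal mice 2 and 3 and 0.05 after correction for GC content and length, and without normal mouse 1 it was 0.38 and called (limma adjusted p = 0.0316).

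Homer3 stood out among the paralogs with 6.4, 21.3, 25.1 and 9.2 FPKM in the normal mice and 3.0, 2.4, 2.8 and 2.6 FPKM in the HFD mice. Normal mice 2 and 3 were the highest, as in the cerebellar markers, and Homer3 is known for its expression in Purkinje cells. Its log2 fold change of −2.27 (SE 0.38, limma adjusted p = 0.00274) became −1.48 without normal mice 2 and 3 (limma adjusted p = 0.00258). The part of cerebellar RNA in this difference was not tested.

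Among 15 other proteins of the excitatory postsynaptic density, 10 were higher, 1 was lower and 4 were not called, with a median log2 fold change of 0.34. Of all genes tested 17.7% were called higher. Iqsec2, an exchange factor for Arf6, had 13.2, 9.9, 9.9 and 15.3 FPKM in the normal mice and 19.3, 20.8, 23.2 and 18.9 FPKM in the HFD mice. Its groups did not overlap, and it rose by 0.78 on the log2 scale (limma adjusted p = 0.00348). Iqsec1, Cnksr2, Begain, Magi2, Lzts3, Sipa1l1, Baiap2 and Kalrn were also called higher, by 0.23 to 0.52, and the most abundant was Kalrn, a protein of dendritic spines, at 150.5 ± 35.1 against 204.1 ± 12.3 FPKM (SD, n = 4). Cttn, which binds actin, was lower by a log2 change of −0.19 (limma adjusted p = 0.0142). The count of 10 was 5 without normal mice 2 and 3, and also 5 without normal mouse 2 alone, 6 without normal mouse 3, HFD mouse 2 or HFD mouse 3, and 5 after correction for GC content and length. With the replicate number as a block it was 5, with GC correction besides 6, and with GC and length correction besides 4. Under the block alone Kalrn, Baiap2, Lzts3, Sipa1l1 and Magi2 were not called (limma adjusted p = 0.0671, 0.0836, 0.0867, 0.0666 and 0.0581). In the comparison without both of those normal mice Kalrn was at 0.17 and not called (limma adjusted p = 0.0952), and Cnksr2 was at 0.30 (limma adjusted p = 0.00793).

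Of 6 NMDA receptor subunits, 3 were higher, 1 was lower and 2 were not called, beside 17.7% called higher among all genes tested. Grin1, the obligatory and most abundant subunit, went from 77.7 ± 6.01 to 90.1 ± 5.56 FPKM (SD, n = 4), and Grin2a and Grin2b, the main partners in cortex, rose by 0.44 and 0.50 on the log2 scale (limma adjusted p = 0.0313, 0.0127 and 0.0108 for Grin1, Grin2a and Grin2b). Grin2c, a subunit of cerebellar granule cells and glia, had 11.5, 17.5, 22.0 and 13.4 FPKM in the normal mice and 9.9, 9.5, 9.7 and 8.6 FPKM in the HFD mice. It was again highest in normal mice 2 and 3, and its log2 fold change of −0.72 became −0.40 without them (limma adjusted p = 0.0116 and 0.0195). The call of Grin1 was lost without normal mice 2 and 3 (limma adjusted p = 0.204) and without normal mouse 2, normal mouse 3, HFD mouse 2 or HFD mouse 3 alone (limma adjusted p = 0.0845, 0.0762, 0.0767 and 0.0771), and after correction for GC content and length 1 subunit, Grin2a, was still higher. Grin2a and Grin2b were at 0.23 and 0.26 without normal mice 2 and 3 (limma adjusted p = 0.0254 and 0.0152).

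**Figure D4:**
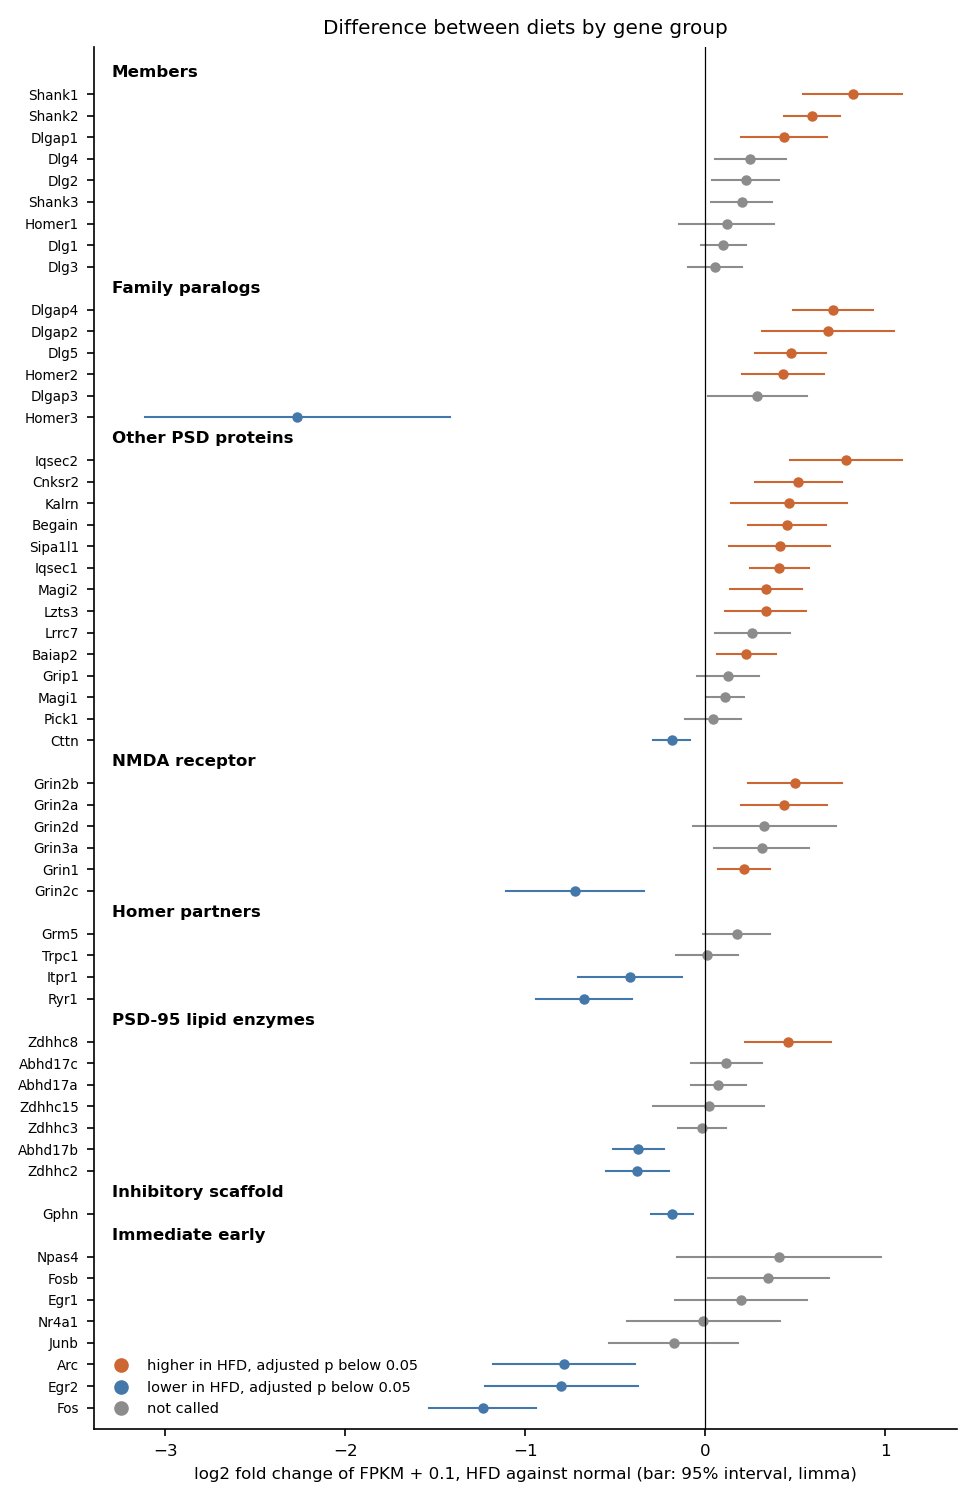
Log2 fold change of FPKM + 0.1, HFD against normal, for the 9 scaffolds and genes of 7 related groups, with 95% intervals from limma (4 mice per diet); PSD stands for postsynaptic density. Orange points are higher, blue points lower and gray points not called at an adjusted p of 0.05; Homer3, at −2.27, lies farthest from 0.

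Homer binds receptors and calcium channels, and of 5 such partners 0 were higher, 2 were lower and 3 were not called by limma, with 0 higher also at an unadjusted p under 0.05. Itpr1, the IP3 receptor and the most abundant of them, had 137.4, 176.8, 192.8 and 134.2 FPKM in the normal mice and 107.1, 116.8, 140.9 and 111.5 FPKM in the HFD mice. HFD mouse 3 reached the normal range, and normal mice 2 and 3 were the highest. Its log2 fold change of −0.42 (limma adjusted p = 0.0332) was −0.20 and not called without those mice (limma adjusted p = 0.203), and the call was also lost without any single 1 of normal mice 2 and 3 and HFD mice 1, 2 and 4. Ryr1 was low, at 2.17 against 1.32 FPKM, and fell by 0.67 on the log2 scale (limma adjusted p = 0.00335), or by 0.45 with an added constant of 1. The metabotropic receptor Grm5 had a log2 fold change of 0.18 (limma adjusted p = 0.132).

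PSD-95 is anchored by palmitoylation, and of 7 enzymes that add or remove this lipid 1 was higher, 2 were lower and 4 were not called. Zdhhc2, a palmitoyltransferase of PSD-95 in dendrites, measured 29.9, 26.4, 24.2 and 28.6 FPKM in the normal mice and 22.6, 20.6, 18.8 and 21.9 FPKM in the HFD mice. All HFD mice were below all normal mice, a log2 fold change of −0.38 (limma adjusted p = 0.00693) that was −0.48 without normal mice 2 and 3. Abhd17b, a depalmitoylating enzyme, fell by 0.37 and Zdhhc8 rose by 0.46 (limma adjusted p = 0.00286 and 0.0103), the latter not called after correction for GC content and length (limma adjusted p = 0.0695) and at 0.27 without normal mice 2 and 3 (limma adjusted p = 0.0417). Abhd17a, the most abundant, stood at 68.1 ± 5.91 and 71.6 ± 4.08 FPKM (SD, n = 4) and was not called, with a log2 fold change of 0.07 that was −0.02 without normal mice 2 and 3 and −0.05 after correction for GC content. In the inhibitory scaffold, Gphn (gephyrin) was lower by −0.19 (limma adjusted p = 0.0231), a call lost without normal mouse 2, normal mouse 3, HFD mouse 1 or HFD mouse 3, and without both of those normal mice (−0.11, limma adjusted p = 0.147).

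Of a list of 8 immediate early genes, which does not hold all such genes, 0 were higher and 3 were lower by limma, with 1 higher and 3 lower at an unadjusted p under 0.05, and 1 was called higher without normal mouse 4. Fos had 22.0, 20.7, 20.8 and 23.0 FPKM in the normal mice and 11.8, 9.7, 8.6 and 7.0 FPKM in the HFD mice. Arc, the most abundant of them and itself a postsynaptic protein, had 156.9, 123.4, 93.4 and 132.5 FPKM against 88.9, 71.1, 79.1 and 54.3 FPKM. Both were without overlap, with log2 fold changes of −1.24 and −0.78 (limma adjusted p = 0.000650 and 0.00897), and Egr2 was at −0.80 (limma adjusted p = 0.0117). Without normal mice 2 and 3 these values were −1.29, −0.997 and −1.06. Fosb, Junb, Egr1, Npas4 and Nr4a1 were not called. Egr3 and Egr4 are outside the list and were looked up after its values were seen. Egr3 went the other way, with 16.6, 12.8, 11.3 and 19.4 FPKM in the normal mice and 27.7, 30.9, 37.2 and 24.8 FPKM in the HFD mice, and rose by 1.02 on the log2 scale (limma adjusted p = 0.00301), or by 0.73 without normal mice 2 and 3 (limma adjusted p = 0.0152). Egr4 was not called (−0.02, limma adjusted p = 0.942).

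Transcripts annotated inside Dlg2 and Homer1 were added after their values were seen. Within Dlg2 lie 30 annotated genes, 18 of them measured, all on its own strand, and 17 of the 18 share no base with its exons. Their mean FPKM in the normal mice lay between 0.85 and 5.05, and 14 of 18 were higher in HFD by limma, with a median log2 fold change of 0.62. Dlg2 itself was at 0.22 and not called. Of all 480 tested transcripts of the class TEC, loci awaiting experimental evidence, to which 17 of the 18 belong, 51.0% were higher and 1.04% lower, with a median of 0.49, so that higher levels in HFD were common in the class. Without normal mice 2 and 3, 6 of the 18 were called higher.

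Within Homer1 lie RP23-262I3.3 (Gm47075, chr13:93312041-93314055) and RP23-262I3.4 (Gm47088, chr13:93317427-93319065), both TEC on the strand of Homer1 and with no base in its exons. RP23-262I3.4 had 2.2, 1.5, 1.3 and 1.6 FPKM in the normal mice and 0.9, 0.9, 0.8 and 0.8 FPKM in the HFD mice. RP23-262I3.3 had 2.7, 1.9, 1.7 and 2.4 FPKM against 1.3, 1.9, 1.1 and 1.4 FPKM. The former was without overlap and the latter overlapped through HFD mouse 2. Both were lower in HFD, by log2 changes of −0.86 and −0.58 (limma adjusted p = 0.00593 and 0.0445), while Homer1 was at 0.12. With an added constant of 1 the former was −0.51. The call of RP23-262I3.3 was lost in 6 of 8 fits without 1 mouse, namely all except those without normal mouse 3 and without HFD mouse 2. Whether such transcripts are parts of unspliced host RNA or RNAs of their own was not tested.

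Sequence and position set some limits on single genes. Dlg1, Dlg2, Shank1, Shank2, Shank3 and Dlgap1 overlap annotated genes on the opposite strand, which were not analysed here. The library kit keeps strand, but no source at hand states whether quantification used it, so antisense reads cannot be told apart. GC content of the longest transcript was highest in Shank3, Shank1 and Shank2 (62.4%, 61.4% and 55.0%) and lowest in Homer1 (36.9%), which is why each value was also computed after correction for GC content.

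**Figure D5:**
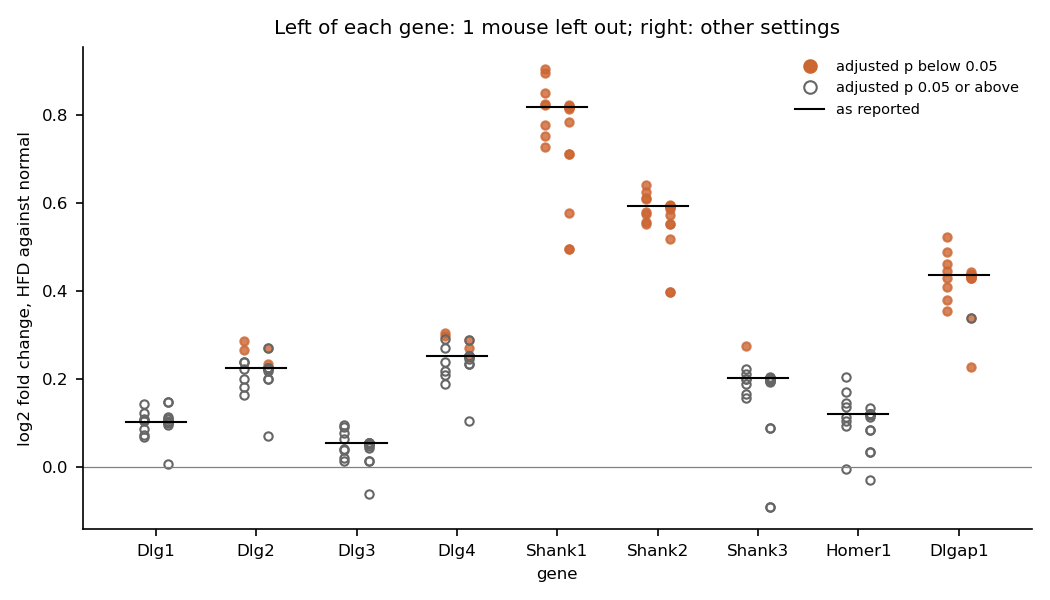
Log2 fold change of each scaffold, HFD against normal, in fits that leave out 1 mouse (left of each gene) and in other settings (right), with a line at the reported value; filled points have a limma adjusted p below 0.05. Shank1 and Shank2 are filled throughout, and Dlgap1 in all but 1 setting.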

How the data were processed

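Cortex RNA of 4 normal and 4 HFD mice was analysed as FPKM values deposited by the authors, whose notes name FastQC, Trimmomatic, STAR (mm10) and Cuffnorm, run on GENCODE M17 (GRCm38.p6), without tool versions. A count test could not be used on FPKM, so log2(FPKM + 0.1) was fitted in limma 3.58.1 (R 4.3.3) using limma-trend. Its two-sided p-values were adjusted (Benjamini-Hochberg) across the 13982 genes that averaged 1 FPKM or more and had no 0. Fold changes are on this scale, which understates those of low genes. The 9 ratios within families were compared by exact two-sided permutation (Python 3.11.15, scipy 1.17.1, numpy 2.4.6, pandas 2.3.3; figures with matplotlib 3.10.9). Coordinates are from GENCODE M21 on GRCm38, later than the authors' annotation, so gene models may differ.

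Named were all 9 scaffolds, genes of 7 related lists with an adjusted p below 0.05, the most abundant gene of each list, and 3 nearest patterns each for Dlg4, Shank3 and Homer1. Some genes of the lists are not reported here. Transcripts inside Dlg2 and Homer1 were chosen after their values were seen, and so were Egr3 and Egr4. The members and lists were chosen with earlier results of these data known. Alternatives were added constants of 1 and 0.01, other filters, median-ratio and quantile scaling, no trend, a minimum change of 50%, the replicate number as a block, loess corrections (span 0.5) for GC content and length, and each mouse left out. Normal mice 1 and 4 against all HFD mice was added after the marker values were seen. On data simulated with independent genes, the procedure recovered 67 of 100 changes of 1.5-fold and 91 of 100 changes of 2-fold. In that simulation 10 unchanged genes were called. Variation shared between genes, which these mice show, was not simulated. The Salmon and edgeR results of the authors were not used. Promoter sequences are from RefSeq (GRCm38.p6).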

Additional observations from a re-analysis of the deposited data

Results flagged for a closer look

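Among the values by diet of the 41 genes examined, 82 groups of 4 mice in all, 1 had a mouse far from the others: Dlg1 in the HFD mice, where HFD mouse 2 measured 75.1 FPKM against 71.9, 72.2 and 72.4 in the others. The gap was 0.844 of the range of the group. Chance marks about 1 in 20 such groups, and the other HFD values differ by little.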

How the results depend on the processing

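Shank1 and Shank2 were called higher in every alternative run, with log2 fold changes of 0.49 to 0.91 and 0.40 to 0.64. Dlgap1 was called in all but 1, and did not reach the minimum change of 50%. With normal mice 1 and 4 against all HFD mice, added after seeing the data, 2743 genes passed instead of 4626, Dlg3 was at −0.062 and Homer1 at −0.031, Abhd17a was at −0.022, and the differences of Shank1 over Shank2 and Shank1 over Shank3 were 0.059 and 0.38. Quantile scaling gave 5 scaffolds, with Dlg2 at 0.23 and Dlg4 at 0.27. GC correction also gave 5, with Dlg2 at 0.27 and Dlg4 at 0.29, and turned Abhd17a to −0.050. With GC and length correction Shank3 was at −0.092 and Abhd17a at −0.013. Testing only genes with a mean of at least 5 FPKM called Dlg4 at the same 0.25 (limma adjusted p = 0.0490, against 0.0523 as reported). A minimum change of 50% left 997 genes. The causes of these shifts were not tested.

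Leaving out each mouse gave 3295 to 4619 genes, 3 to 5 scaffolds, and log2 fold changes of 0.16 to 0.29 for Dlg2, 0.19 to 0.30 for Dlg4, 0.16 to 0.27 for Shank3 and −0.0052 to 0.20 for Homer1. Dlg2 and Dlg4 were called without normal mouse 1 or normal mouse 4, and Shank3 without HFD mouse 4.

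No source at hand states whether mice of the same replicate number were handled together. Same-numbered mice deviated with r of −0.04, −0.03, −0.11 and −0.07, and no normal mouse matched its own number best, so no strong pairing was seen. With the replicate block 3390 genes and 3 scaffolds passed; the replicate block with GC correction kept Abhd17a at −0.050; with GC and length correction besides, 2909 genes passed, Dlgap1 was at 0.34 and not called (limma adjusted p = 0.0690), Shank3 was at −0.092 and Abhd17a at −0.013. Under the block alone Grin1, Gphn and RP23-262I3.3 were not called (limma adjusted p = 0.0921, 0.0527 and 0.0655). The block was not run for the ratios, whose exact test has no block. FPKM keep no depth, and rounding to 0.1 limits genes near 1 FPKM.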
